A study of Mus musculus with 6 samples.

Results

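The genes described here encode the machinery that makes ribosomes in the nucleolus, measured in mouse 3T3-CrT fibroblasts with and without 5 mM creatine (Cr) for 3 h. They were chosen as a list of 50 gene symbols in 7 roles, and a gene entered the results if a probe annotated with its symbol was detected (detection p of 0.05 or below) on 1 or more of the 6 arrays. By that rule 43 of the 50 genes were measured, on 73 of the 20308 probes that passed the same filter, and these 20308 probes included 10585 named genes. No tested probe carried the symbols Npm3, Fbl, Utp20, Bysl, Wdr12, Ddx18 or Nop16 in the annotation used here.

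The untreated group held 3 wells of 3T3-CrT cells in growth medium, and the Cr group held 3 wells given creatine monohydrate at 5 mM in the same medium for 3 h before RNA was isolated. Both groups shared the transgene: these are Tet-Off 3T3 mouse fibroblasts that stably express the rabbit creatine transporter CrT, with an epitope tag at its carboxyl end, and both were grown with G418 and puromycin. Whether the line derived from 1 clone was not stated in the sources used here. The wells are replicates of culture on plates of the same line, so the tests below measure the spread between wells. The array experiment was made to find genes that respond when the transporter meets a saturating amount of its substrate, and the comparison given here asks whether transcripts for ribosome assembly differed between the groups.

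Ribosome production starts when RNA polymerase I transcribes a long precursor RNA from the repeated rRNA genes. Small nucleolar RNA-protein particles (snoRNPs) of the box C/D and box H/ACA kinds guide methylation and pseudouridylation of that precursor, and a large set of assembly factors folds, cuts and exports the small and large subunits. Cells that grow or divide fast make much of this machinery, and many of its genes are known targets of the transcription factor Myc.

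Members with a start site in the RefSeq promoter table (mouse build GRCm38.p6) were searched for sequences known from promoters of such genes, in the 250 bases before the first start site listed. Of the 43 measured members, 38 had a window. The 4 windows below hold the motifs that divide the members further on. Capitals mark the E-box that Myc and related factors bind (CACGTG, its own reverse complement), the ETS-type motif (GGAAGTG, or CACTTCC on the other strand) and the palindrome TCGCGA. The windows were picked by fold change. They belong to the members of lowest log2 fold change (Cr minus untreated) with an E-box, and with both other motifs. Imp4 (-0.05) and Nop14 (0.02) also held these motifs and were left out. Each window is printed 5′ to 3′ on the gene's strand, which was the plus strand for all 4. The Nop2 window lies at chr6:125131633-125131882, the Rrn3 window at chr16:13780449-13780698, the Tsr1 window at chr11:74897830-74898079 and the Mybbp1a window at chr11:72441077-72441326.
Nop2: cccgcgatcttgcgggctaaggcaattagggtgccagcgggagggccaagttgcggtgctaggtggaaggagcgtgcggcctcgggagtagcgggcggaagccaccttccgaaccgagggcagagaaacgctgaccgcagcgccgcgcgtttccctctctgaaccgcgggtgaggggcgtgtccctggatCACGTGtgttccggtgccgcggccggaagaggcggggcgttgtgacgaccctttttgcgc
Rrn3: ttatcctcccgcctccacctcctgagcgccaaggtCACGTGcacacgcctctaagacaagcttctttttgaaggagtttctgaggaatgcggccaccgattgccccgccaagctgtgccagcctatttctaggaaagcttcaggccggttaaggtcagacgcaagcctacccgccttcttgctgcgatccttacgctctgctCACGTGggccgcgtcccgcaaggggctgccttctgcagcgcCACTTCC
Tsr1: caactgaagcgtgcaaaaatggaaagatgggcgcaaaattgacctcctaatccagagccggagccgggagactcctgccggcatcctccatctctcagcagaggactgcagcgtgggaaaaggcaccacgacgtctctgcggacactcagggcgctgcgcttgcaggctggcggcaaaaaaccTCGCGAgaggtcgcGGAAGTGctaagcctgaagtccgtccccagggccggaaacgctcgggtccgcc
Mybbp1a: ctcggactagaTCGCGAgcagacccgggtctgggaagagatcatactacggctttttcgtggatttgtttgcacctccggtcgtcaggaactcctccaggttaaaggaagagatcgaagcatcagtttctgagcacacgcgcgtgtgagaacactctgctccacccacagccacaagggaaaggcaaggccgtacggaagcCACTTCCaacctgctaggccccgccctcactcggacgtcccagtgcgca

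The E-box was present in 3 of the 38 member windows (7.89%), in Rrn3, Nop2 and Imp4, against 8.44% of the 8604 named tested genes with a window and 6.05% of all 27025 genes in the table. The ETS-type motif was present in 11 windows (28.9%), against 11% of named tested genes and 8.64% of all genes. TCGCGA was found in 4 windows (10.5%), those of Nop58, Nop14, Tsr1 and Mybbp1a, against 4.39% and 2.14% of the same sets. In 3 members, Tsr1, Mybbp1a and Nop14, the ETS-type motif and TCGCGA occurred together, without sharing bases in the 2 windows printed. The remaining searches, on both strands as well, gave CCAAT in 12 windows (31.6%, against 37.1% of named tested genes), TATAAA in 2 (5.26%, against 7.11%) and the palindromic NRF1 motif in 0 (against 1.57%). Median GC content was 57.6% in the member windows and 59.6% in those of the named tested genes. These matches describe letters in a window and say nothing of whether a factor was bound.

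On the arrays, transcripts for ribosome assembly were close to equal in the untreated and Cr groups. None of the 73 member probes passed the test (limma, adjusted p of 0.05 or below over all 20308 probes), where 6 of all tested probes did (0.0295%, with 0.0246% lower and 0.00492% higher with Cr). At an unadjusted p of 0.05 or below the count was 0 member probes, against 1024 probes in all (5.04%; 5.27% of named genes on their brightest probe), and the smallest unadjusted p of a member in limma was 0.0539, for Dkc1. Of the 43 genes, each taken on its brightest probe, 42 had a log2 fold change (Cr minus untreated) within 0.2 of 0 and 31 within 0.1 of 0. The 95% confidence intervals of all 43 contained 0, the lowest bound being -0.53 (Tsr1) and the highest 0.31 (Ubtf).

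The members nevertheless leaned to lower values with Cr as a list. Log2 fold changes ran from -0.22 for Tsr1 to 0.14 for Ubtf, with a median of -0.05. They were below 0 for 31 genes and above 0 for 12, a share below 0 of 72.1%, against 48.7% of all 10585 named genes, whose median was 0.0030. Among the 4110 other named genes that gave levels like those of the members, the median was 0.0065 and 46.8% lay below 0. The genes share arrays and are not independent of each other, and these counts are a description with no test.

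**Figure D1:**
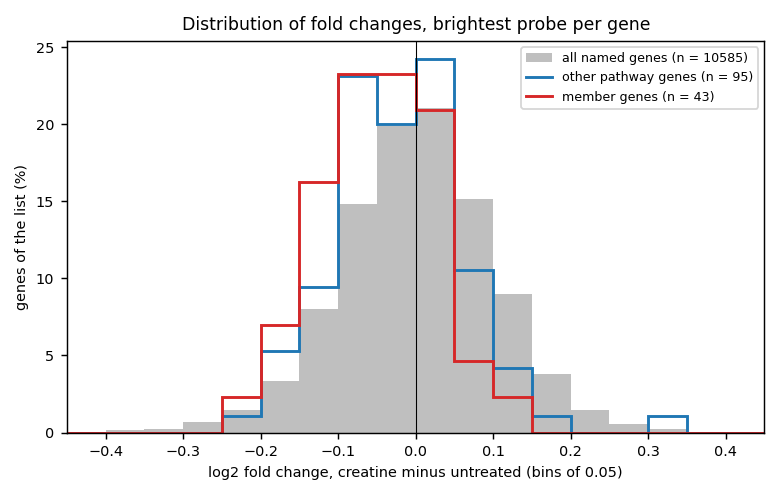
Log2 fold change on the brightest probe (horizontal axis, Cr minus untreated, bins of 0.05) against the percent of genes in each bin (vertical axis), for the 43 member genes, the 95 other genes of the pathway and all 10585 named genes. The members' distribution lies slightly to the left of that of all genes, with medians of -0.05 and 0.0030, and has no member beyond -0.22 or 0.14.

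The lean is given here for the 7 roles on brightest probes, with no test of differences between roles. Each role held 2 to 11 measured genes, and 72.1% of all 43 members lay below 0. All 7 measured scaffold and chaperone genes, all 3 box C/D snoRNP genes and both rRNA modification genes lay below 0. Their median log2 fold changes were -0.08, -0.11 and -0.10. Other probes of Ddx21 (0.05) and Nop2 (0.04), in 2 of these roles, lay above 0. Large subunit factors had a median of -0.07, with 8 of 10 below 0, and small subunit factors a median of -0.05, with 6 of 11 below 0. RNA polymerase I genes, with a median of 0.0045, and box H/ACA genes, with a median of -0.04, were evenly divided, 3 of 6 and 2 of 4 lying below 0. With normexp background correction and median scaling, which placed the median of all named genes at 0.04, every role median was higher. There it was -0.07 for modification, -0.06 for box C/D, -0.04 for scaffold and -0.02 for large subunit genes. For small subunit, box H/ACA and RNA polymerase I genes it was -0.0002, 0.0044 and 0.05. Single arrays weighed on the role medians of the main fit. With 1 array left out, the scaffold median stayed between -0.09 and -0.07, and that of box C/D genes ran from -0.21 (without untreated replicate 2) to -0.09, being -0.19 without Cr replicate 1. For the modification genes the range was -0.15 to -0.02 (without untreated replicate 1), for large subunit factors -0.08 to -0.03 (without Cr replicate 1; -0.04 without untreated replicate 1) and for small subunit factors -0.05 to -0.0016 (without Cr replicate 3; -0.03 without untreated replicate 1 or 3). The box H/ACA median ran from -0.07 (without Cr replicate 3; -0.06 without untreated replicate 1) to -0.0011 (without untreated replicate 3). That of the RNA polymerase I genes was on either side of 0, from -0.0078 without Cr replicate 2 to 0.03 without untreated replicate 1 or Cr replicate 3.

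**Figure D2:**
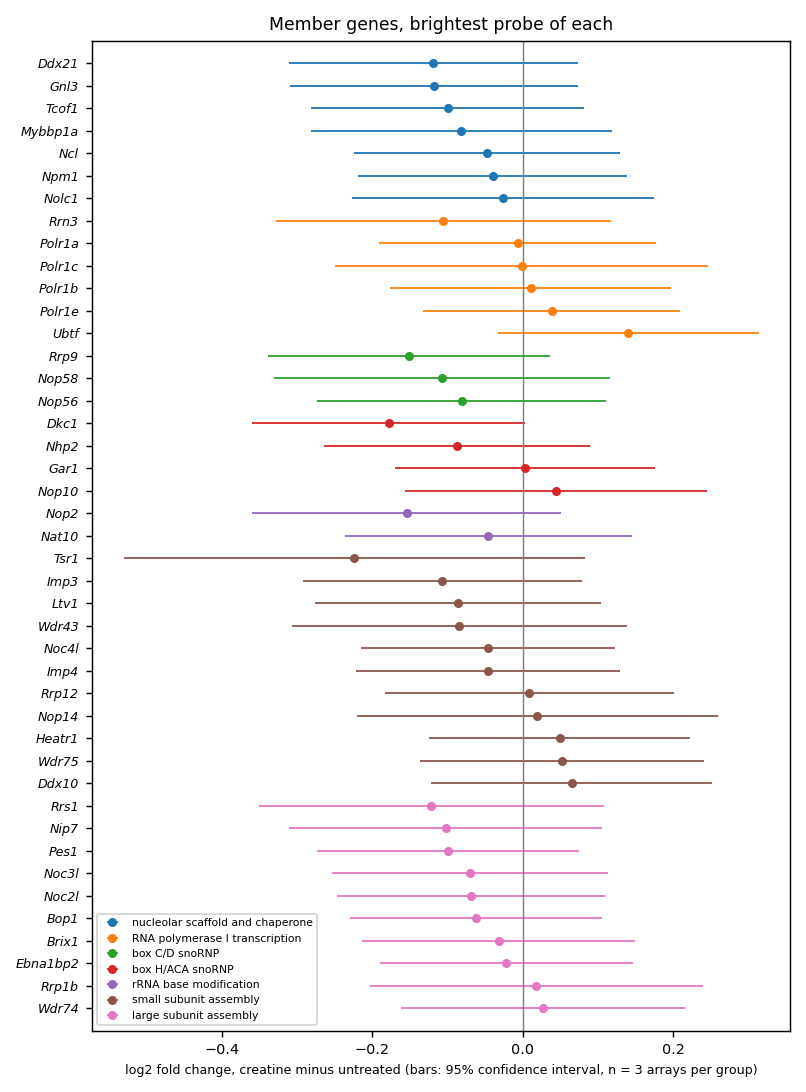
Log2 fold change of each of the 43 measured members (horizontal axis, Cr minus untreated, brightest probe), with points coloured by role and bars for the 95% confidence interval from limma (n = 3 arrays per group). Every bar crosses 0, and 31 of the 43 points lie to its left, Tsr1 farthest at -0.22.

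Among the scaffold and chaperone genes, nucleophosmin (Npm1), an abundant nucleolar chaperone, gave normalized log2 values of 15.34, 15.26 and 15.48 in the untreated wells and 15.33, 15.30 and 15.34 in the Cr wells. The Cr values lay within the untreated range, and the log2 fold change was -0.04 (SE 0.08, adjusted p = 0.995 in limma). Nucleolin (Ncl), which binds the rRNA precursor, had a log2 fold change of -0.05 on its brighter probe and -0.02 on the other. Among the brightest probes of this role, the weakest signal came from Nolc1, a snoRNP chaperone. Its exported signals were 189, 222 and 184 untreated and 197, 197 and 183 with Cr, and its log2 fold change was -0.03.

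Gnl3 encodes nucleostemin, a nucleolar GTPase of proliferating cells. Its normalized log2 values were 10.04, 10.20 and 10.26 untreated and 9.94, 10.07 and 10.14 with Cr, so that the groups overlapped through untreated replicate 1. The log2 fold change was -0.12 (SE 0.09, adjusted p = 0.986 in limma). Ddx21, an RNA helicase that links RNA polymerase I transcription with rRNA processing, read 12.97, 12.73 and 12.96 untreated and 12.87, 12.72 and 12.72 with Cr on its brighter probe. There the log2 fold change was also -0.12 (SE 0.09, adjusted p = 0.986 in limma), but the gene's other probe, detected on all 6 arrays, gave 0.05 (SE 0.08). Tcof1, which encodes treacle, a partner of RNA polymerase I, and Mybbp1a, a nucleolar Myb-binding protein, had log2 fold changes of -0.10 and -0.08 on their brightest probes, with overlapping groups.

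RNA polymerase I transcription included the member with the highest fold change. Ubtf encodes the upstream binding factor that occupies the rRNA genes, and its brightest probe read 10.37, 10.31 and 10.29 untreated and 10.41, 10.42 and 10.56 with Cr. All 3 Cr wells lay above all 3 untreated wells, the only member gene for which this held on the brightest probe, while 6.09% of all named genes showed the same order. The log2 fold change was 0.14 (SE 0.08, 95% confidence interval -0.03 to 0.31), or 110.2% of untreated, with an adjusted p of 0.986 in limma and a two-sided exact permutation p of 0.1, the smallest that 3 against 3 wells allow. A probe of nearly the same brightness for the same gene went the other way, reading 10.37, 10.26 and 10.25 untreated and 10.11, 10.30 and 10.11 with Cr, a log2 fold change of -0.12 (SE 0.09). The third Ubtf probe was detected on 1 array of each group and gave 0.0045.

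The polymerase subunits themselves were nearly level. Polr1a, the largest catalytic subunit, had log2 fold changes of -0.0071 on its brightest probe and between -0.06 and 0.11 on 3 others. Polr1b, the other large subunit, gave 0.01, and Polr1c, which RNA polymerase III also contains, gave -0.0017. For Polr1e, a subunit that helps the enzyme engage its template, the values were 10.28, 10.39 and 10.33 untreated and 10.30, 10.40 and 10.41 with Cr, a log2 fold change of 0.04 (SE 0.08, adjusted p = 0.995 in limma). Its groups overlapped over nearly their whole range. Rrn3, the initiation factor that brings the polymerase to the promoter, read 10.60, 10.24 and 10.44 untreated and 10.29, 10.19 and 10.48 with Cr, with a log2 fold change of -0.11 (SE 0.10, adjusted p = 0.986 in limma). Rrn3 carried 2 E-boxes in its window, and its spread between untreated wells (SD 0.18) was larger than the difference of the means.

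Of the box C/D snoRNP genes, Rrp9 encodes a protein particular to the snoRNP that guides early precursor cleavage. It read 11.42, 11.19 and 11.31 untreated and 11.24, 11.07 and 11.16 with Cr, the groups overlapping because untreated replicate 2 lay below Cr replicate 1. The log2 fold change was -0.15 (SE 0.09, 95% confidence interval -0.34 to 0.04), with an adjusted p of 0.986 in limma and an exact permutation p of 0.2. Nop56 and Nop58, the paired core proteins of the particle, had log2 fold changes of -0.08 (SE 0.09) and -0.11 (SE 0.10). The Nop58 values were 14.24, 13.89 and 14.16 untreated and 14.14, 13.85 and 13.97 with Cr, a range of the untreated wells that took in all but the lowest Cr well.

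Among the box H/ACA genes, the lowest unadjusted p of all members belonged to Dkc1, which encodes dyskerin, the pseudouridine synthase of the particle. Its exported signals were 223, 223 and 218 in the untreated wells and 191, 189 and 216 in the Cr wells, and the normalized log2 values were 7.42, 7.41 and 7.56 against 7.27, 7.20 and 7.38. All 3 Cr wells lay below all 3 untreated wells, by 0.03 at the closest, and 5.31% of all named genes were ordered this way. The log2 fold change was -0.18 (SE 0.08, 95% confidence interval -0.36 to 0.0034), or 88.4% of untreated, with an adjusted p of 0.985 in limma and a two-sided exact permutation p of 0.1, again the smallest possible. The probe was dim, and its log2 fold change was -0.37 with the neqc background correction, where the adjusted p was 0.829 in limma.

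The 3 partners of dyskerin did not share that order. Nhp2 and Gar1 had log2 fold changes of -0.09 and 0.0027 on their brightest probes. Nop10 read 12.77, 12.77 and 12.84 untreated and 12.97, 12.64 and 12.90 with Cr, so that the Cr wells held both the highest and the lowest of the 6 values. Its log2 fold change was 0.04 (SE 0.09, adjusted p = 0.995 in limma).

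The rRNA modification genes were Nop2, which encodes a cytosine methyltransferase of the large subunit rRNA, and Nat10, which encodes an enzyme that acetylates cytosines of the small subunit rRNA. Nop2, whose window holds an E-box, read 11.08, 10.86 and 10.84 untreated and 10.91, 10.63 and 10.79 with Cr. Cr replicate 1 lay above 2 of the untreated wells, and the log2 fold change was -0.15 (SE 0.10, adjusted p = 0.986 in limma). Another Nop2 probe gave -0.16 (SE 0.11) and the last gave 0.04 (SE 0.09), each detected on all 6 arrays. Nat10 had a log2 fold change of -0.05 (SE 0.09).

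Small subunit factors held the member with the lowest fold change and the widest spread. Tsr1 encodes a GTPase-like factor of late small subunit maturation, and its brighter probe read 10.11, 9.69 and 9.62 untreated and 9.78, 9.23 and 9.73 with Cr. The difference rested on a high untreated well and a low Cr well, and the other 4 values lay between 9.62 and 9.78. Accordingly its SE of 0.14 was the largest among the members' brightest probes, around a log2 fold change of -0.22 (85.6% of untreated, 95% confidence interval 69.2% to 105.9%), with an adjusted p of 0.986 in limma and an exact permutation p of 0.6. Its other probe, detected on 5 of 6 arrays and far dimmer, gave -0.03 (SE 0.08).

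Imp3, which joins the early U3 snoRNP complex, read 12.74, 12.85 and 12.90 untreated and 12.72, 12.61 and 12.84 with Cr. Its log2 fold change was -0.11 (SE 0.09, adjusted p = 0.986 in limma), with overlapping groups. Its companion Imp4 gave -0.05, as did Noc4l, while Ltv1, a factor of late assembly, gave -0.09 and Wdr43, an early assembly factor, gave -0.08. Rrp12, whose yeast counterpart acts in subunit export, and Nop14, an early factor, gave 0.0087 and 0.02.

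The remaining 3 small subunit factors had positive fold changes within the spread of the wells. Ddx10, an RNA helicase, read 9.30, 9.48 and 9.48 untreated and 9.59, 9.41 and 9.45 with Cr, a log2 fold change of 0.06 (SE 0.09, adjusted p = 0.994 in limma). Only Cr replicate 1 exceeded the untreated wells, and the second Ddx10 probe gave 0.06 as well. Heatr1, an early factor also needed for rRNA transcription, read 11.74, 11.83 and 11.77 untreated and 11.75, 11.91 and 11.83 with Cr, a log2 fold change of 0.05 (SE 0.08, adjusted p = 0.995 in limma). Its other 2 probes gave -0.03 and -0.10, the latter detected on only 1 array per group. Wdr75, which acts in the same early complex, read 12.23, 12.05 and 12.30 untreated and 12.21, 12.21 and 12.32 with Cr, a log2 fold change of 0.05 (SE 0.09, adjusted p = 0.995 in limma), and its other probe gave -0.0010.

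For the large subunit, Pes1 and Bop1 encode partners in a complex needed to process the precursor. Pes1 read 11.25, 11.23 and 11.29 untreated and 11.26, 11.08 and 11.13 with Cr, where 2 of the Cr wells lay below all untreated wells and the other lay among them. The log2 fold change was -0.10 (SE 0.08, adjusted p = 0.986 in limma), and that of Bop1 was -0.06 (SE 0.08). Rrs1, which loads the small ribosomal RNA of the large subunit, gave -0.12 (SE 0.11), and Nip7 gave -0.10 (SE 0.10) on its brighter probe. The other Nip7 probe was detected on 1 untreated array and on no Cr array, so no fold is given for it. Noc2l and Noc3l, whose yeast counterparts bind each other, both gave -0.07, Brix1 gave -0.03 and Ebna1bp2 gave -0.02 on their brightest probes.

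The least bright of 3 Brix1 probes was the only other member probe with groups that did not overlap. It read 9.85, 9.73 and 9.75 untreated and 9.66, 9.68 and 9.65 with Cr, a log2 fold change of -0.11 (SE 0.08, adjusted p = 0.986 in limma), whereas the 2 brighter probes of the gene gave -0.03 and -0.04. Over all probes the counts of such orders were 2 of 73 member probes lower and 1 of 73 higher with Cr, against 5.15% and 5.59% of all tested probes.

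The 2 large subunit factors with positive fold changes were Wdr74 and Rrp1b. Wdr74 read 11.27, 11.18 and 11.41 untreated and 11.38, 11.35 and 11.21 with Cr, a log2 fold change of 0.03 (SE 0.09, adjusted p = 0.996 in limma), with groups of nearly the same range. Rrp1b read 11.24, 11.66 and 11.57 untreated and 11.51, 11.58 and 11.44 with Cr, a log2 fold change of 0.02 (SE 0.10, adjusted p = 0.997 in limma). The low value in untreated replicate 1 recurred on 2 of the 3 other Rrp1b probes, which read 10.92 against 11.28 to 11.55 and 9.27 against 9.43 to 9.61 elsewhere. Without that array the log2 fold change of Rrp1b was -0.11.

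**Figure D3:**
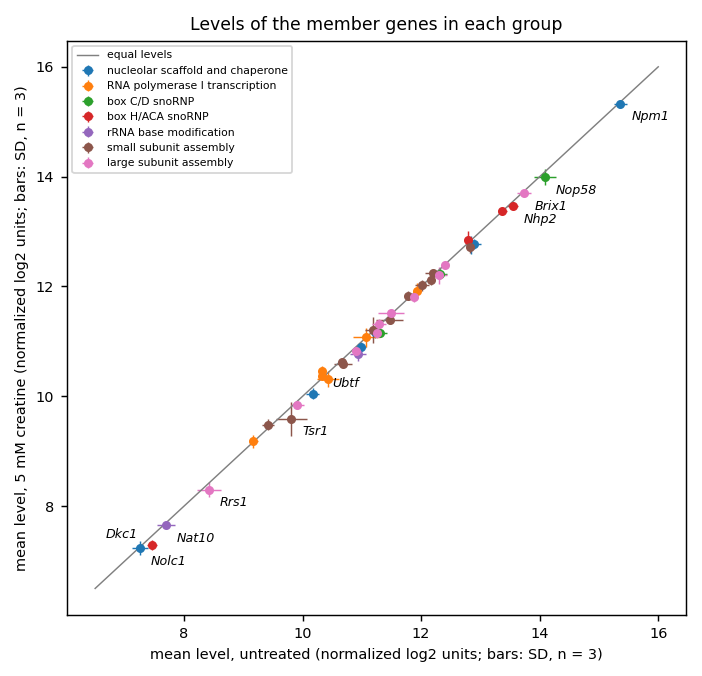
Mean normalized log2 value of each of the 43 measured members in untreated wells (horizontal axis) and in wells with 5 mM Cr (vertical axis), coloured by role, with bars for the SD of 3 arrays and a line of equal levels. Each point lies on or close to the line, Tsr1 having the widest bars. Positions along the line are not amounts of transcript, because probes differ in binding.

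Where a gene had several probes, the probes were a check on the size of these differences. For 8 of the 20 members with several passing probes, the fold changes lay on both sides of 0. The widest disagreements were those of Ubtf (-0.12 to 0.14), Nop2 (-0.16 to 0.04), Tsr1 (-0.22 to -0.03) and Ddx21 (-0.12 to 0.05). These widest ranges between probes of a gene were larger than the fold changes of most members. In the other genes the ranges were narrower, from 0.16 for Polr1a to 0.0058 for Ddx10. They were 0.08 or less in every gene after Rrp1b (0.13). Of all 73 member probes, 53 lay below 0 and 20 above, and 68 were detected on all 6 arrays.

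**Figure D4:**
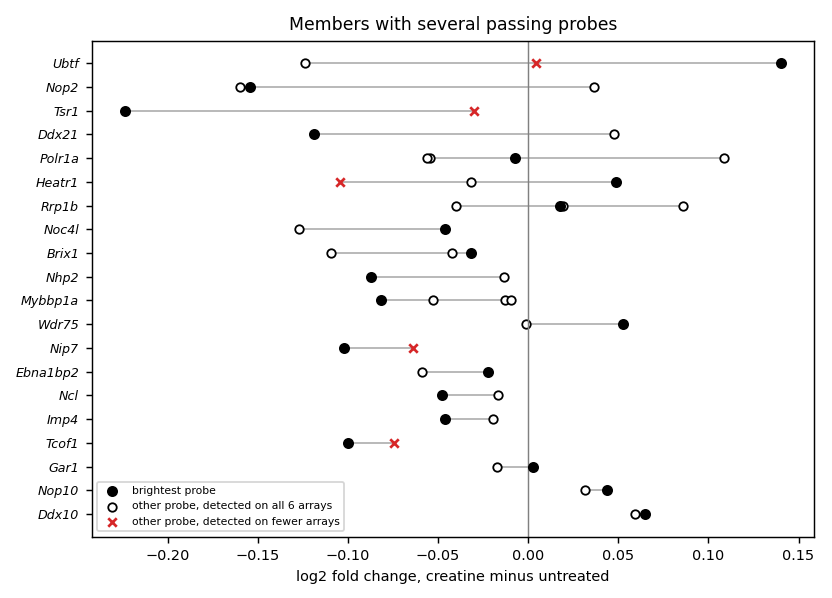
Log2 fold change (horizontal axis, Cr minus untreated) of every passing probe of the 20 members that have several, 1 row per gene, with filled circles for the brightest probe, open circles for other probes detected on all 6 arrays and crosses for probes detected on fewer. Rows run from the widest spread, Ubtf with -0.12 to 0.14, to the narrowest, Ddx10.

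The lean of the list was uneven between wells. The median deviation of the 43 members from their own means was 0.04, 0.01 and 0.05 in the untreated wells. In the Cr wells it was -0.03, -0.01 and -0.01, so that all 3 lay below all 3 untreated wells. The closest were untreated replicate 2 (0.010) and Cr replicate 3 (-0.012), where the pooled SD of these medians between replicates was 0.017. Medians of all named genes were within 0.0071 of 0. Those of the 95 other pathway genes did not keep the order of the members. They were 0.0073, -0.017 and 0.018 untreated and 0.0083, -0.025 and -0.0046 with Cr. From 22 to 28 of the 43 genes were above their own mean in each untreated well, and 18 or 19 in each Cr well. Of all 10585 named genes, 4980 to 5453 were above their own mean in each untreated well, and 5202 to 5376 in each Cr well. The lowest member count of the untreated wells, 22, was that of untreated replicate 2. The median within-group SD between wells was 0.102 in the members and 0.102 in all named genes. It was 0.094 in the named genes of the members' level range.

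Untreated replicate 1 stood apart from the other 5 arrays on the first principal component of all probes (a score of -18.9, against -2.64 to 10.9). It held the highest value of 13 of the 43 members (30.2%, against 23.9% of all named genes). Untreated replicate 3 stood apart on the second component (-13.4, against -3.24 to 6.51). That array held the highest value of 11 members (25.6%, against 15.0% of all named genes). In 7 members, Tcof1, Rrn3, Nop58, Rrp9, Nop2, Tsr1 and Noc2l, untreated replicate 1 was the highest and Cr replicate 2 the lowest of the 6. This order, picked out after the values were seen, held in 16.3% of the members and in 6.58% of all named genes. Without untreated replicate 1 the median log2 fold change of the members was -0.04, with 31 of 43 below 0.

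**Figure D5:**
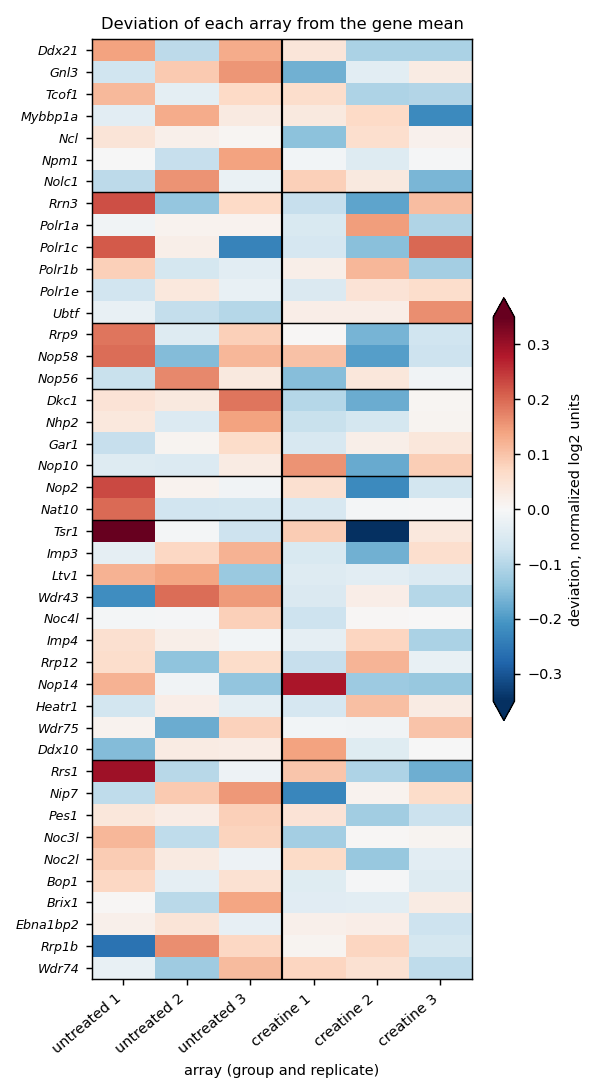
Deviation of each array from the gene's mean over 6 arrays (colour, normalized log2 units, with values beyond 0.35 in either direction at the end of the scale), for the 43 measured members in rows grouped by role and the 6 arrays in columns. The untreated columns hold more red and the Cr columns more blue, with median deviations of 0.01 to 0.05 and of -0.03 to -0.01, but most rows mix both colours within a group.

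The promoter windows divided the members only slightly. The 3 members with an E-box had a median log2 fold change of -0.11 (range -0.15 to -0.05) and the 35 without had -0.05. The 11 with the ETS-type motif, among them Tsr1, Ddx21, Rrn3 and Nip7, had a median of -0.08, against -0.05 in the 27 without, and the 4 with TCGCGA had -0.09, against -0.05 in 34. The members with and without each motif overlapped, and no test was made of these small groups. Myc itself read a log2 fold change of 0.0077 (SE 0.10, adjusted p = 0.998 in limma) on the probe tested.

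The other genes of the pathway, a list of 107 of which 95 were measured, were closer to the median of all genes. Their median log2 fold change was -0.02, with 56 below 0 and 39 above (58.9% below), and 0 passed the test in either direction in limma. At an unadjusted p of 0.05 or below there was 1 gene lower with Cr, Surf6, and 1 higher, Rrp7a, against 5.27% of all named genes in either direction. Rrp7a was detected on no untreated array and on 1 Cr array, so it passed the filter only through the group in which it was higher, and no fold is given for it. Groups did not overlap for 5 of the 95 genes lower and 1 higher with Cr, beside 5.31% and 6.09% of all named genes. Surf6, a nucleolar matrix protein, had a log2 fold change of -0.24 (SE 0.08, adjusted p = 0.891 in limma) and 3 Cr wells below all untreated wells. Nob1, the endonuclease that finishes the small subunit rRNA, and Cd3eap, a subunit of RNA polymerase I, both gave -0.16 (SE 0.08, adjusted p = 0.986 in limma) with groups that did not overlap. In the other direction, Pelp1, a cofactor of large subunit maturation, gave 0.15 (SE 0.09), and Exosc7, a subunit of the RNA exosome, gave 0.14 (SE 0.10), both with overlapping groups. The gene whose Cr wells lay above all untreated wells was Ppan, a large subunit factor named after its values were seen, at 0.10 (SE 0.08).

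Across the series, 16396 to 17700 probes per array were detected and median signals were 152 to 167, and Pearson's r between arrays over the tested probes was 0.993 to 0.997, over probes that are not independent. The number of arrays limits the precision of every value above. The fibroblast label fitted the markers, 9 of 10 fibroblast genes being detected, with Vim, Sparc and Col1a1 on all 6 arrays. Of 30 markers of macrophages, endothelium, epithelium, adipocytes and skeletal muscle, 10 passed on 1 or more arrays and 3 on all 6 (Cd14, Krt8 and Krt19). No tested probe carried the symbol of any marker that did not pass. These were Thy1 for fibroblasts, Cd68, Adgre1, Ptprc and Lyz2 for macrophages, and Pecam1, Cdh5, Tek, Vwf and Tie1 for endothelium. They also included Epcam, Krt18 and Cldn4 for epithelium, Adipoq, Fabp4, Plin1, Cfd and Pparg for adipocytes, and Myod1, Ckm and Myh3 for skeletal muscle. For these, a transcript that was not detected cannot be told from a gene without a named probe. In RNA from whole wells, fewer cells of a kind and less RNA per cell cannot be told apart.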

How the data were processed

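Total RNA of 6 wells had been hybridised to Illumina Mouse WG-6 v2 arrays, 3 per group as the labels name them. The deposited intensity of each of 45281 probes was exported by the authors without background subtraction, and each deposited p-value is that of detection above negative controls. The deposited log2 values are the authors' background-corrected vsn values (generalized log2), and were used as an alternative. They correlated with those computed here at r = 0.9996 to 0.9997 per array.

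The vsn model (asinh with array-wise offset and scale, least trimmed squares at a quantile of 0.9, 7 rounds) was written in R 4.3.3. Its compression makes fold changes of dim probes smaller. Probes passing detection were fitted with limma 3.58.1 (lmFit, eBayes, two-sided, no covariate) and p-values were adjusted by Benjamini-Hochberg over all 20308. The fit was tested on simulated data, with changes placed in probes above the median level. It called 3 of 50 log2 changes of 0.25, 28 of 50 of 0.5 and 48 of 50 of 1, with 7 false calls. No member probe had a log2 fold change of 0.25 in size, so changes of the members' size would mostly not be called. A gene was represented by its probe of highest mean over the 6 arrays. Probes with 1 symbol in the platform annotation (16925) were named, and 3376 had none and 7 several. Per-array values are given for the 8 member genes of lowest p in each direction and up to 4 genes whose probes differ most, with Npm1, Nolc1, Rrn3, Nop58 and a Brix1 probe added after their values were seen. Of the other pathway genes, the 3 of lowest p in each direction are named. Promoter windows came from RefSeq. Members and lists were chosen with earlier results of these data known. Alternatives were other background corrections and scalings, detection filters, variance models, array weights, a replicate block, each array left out and other thresholds. Slide positions are not given in the sources used here. Plots used Python 3.11.15 and matplotlib 3.10.9.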

Additional observations from a re-analysis of the deposited data

How the results depend on the processing

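In none of the settings run was a member probe called, and at an unadjusted p of 0.05 or below they gave 0 to 3 member probes (limma). The lowest adjusted p of a member in any setting was 0.538, for a Nop2 probe without untreated replicate 2. The count over all tested probes was less stable. Against 6 in the main setting, limma called 0 probes with neqc (1145 at an unadjusted p of 0.05 or below), 12 with the deposited values, 12 with log2 and quantile normalization, 2 with normexp and median scaling, 10 with no filter, 13 with a trended robust variance and 15 with array weights. At an adjusted p of 0.1 it was 13, and at an unadjusted p of 0.05 it was 1024. Leaving out 1 array gave 0 to 14 (14 without untreated replicate 1, 1 without Cr replicate 2, and 0 without each of the others, with 764 to 1488 at an unadjusted p of 0.05 or below). The causes were not tested.

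The median of the member genes was -0.017 with normexp and median scaling, where the median of all named genes was 0.04 and most of them lay above 0. It was -0.06 to -0.04 when 1 array was left out. The difference from the median of all named genes was -0.07 to -0.05 in every setting run, and 26 to 34 of the 43 members lay below 0. The signs of small positive fold changes were not stable. Rrp1b was -0.041 and Wdr74 -0.010 with array weights. With 1 array left out, values ran from -0.11 (without untreated replicate 1) to 0.10 for Rrp1b, from -0.028 to 0.089 for Wdr74, from -0.024 to 0.14 for Nop10 and from -0.021 to 0.11 for Wdr75.

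Replicate numbers are shared by the groups, but the labels do not say that equal numbers were handled together, so the arrays were not taken as pairs. Deviations of same-numbered arrays correlated at 0.24, 0.31 and -0.03, against -0.35 to 0.15 for arrays of different numbers. With the replicate block, 14 probes were called, of which 12 were lower with Cr and 0 were member probes, Dkc1 having an adjusted p of 0.679 in limma.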
